A study of Sus scrofa with 5 samples.

Results

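The nuclei described here are aortic smooth muscle nuclei with high counts of COL19A1, ADAMTSL1, SVEP1 and 5 further genes. They were chosen by a rule in 2 steps. Nuclei with at least 2000 UMIs (unique molecular identifiers, each counting 1 captured RNA molecule) and at least 3 of 7 smooth muscle genes (MYH11, ACTA2, LMOD1, SYNPO2, CNN1, MYLK and SMTN) formed the gated smooth muscle nuclei. Each was scored by the mean of ln(1 + UMIs per 10000) over the panel of COL19A1, ADAMTSL1, AKAP12, SLC22A3, PGM5, COL15A1, SVEP1 and TNC. The top 5% by score over all libraries pooled, with at least 3 panel genes detected, were the members. Of 45580 barcodes, 24776 had the UMI minimum, 21000 passed the gate and 1050 were members. The other 19950 gated nuclei are called the rest.

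The study sampled abdominal aorta from 5 Ossabaw pigs, all castrated males, a breed used as a model of diet-induced obesity and atherosclerosis. Of these, 3 (the obese group) received the HF/HFru diet named in the labels and 2 (the control group) received chow. Both groups were 12 months old when the diets began. The labels state 6 months on diet for each sample and 9 months in the series text. Each pig gave 1 library of DRAQ5-stained, sorted nuclei, so the pig is the replicate, and nuclei of 1 pig are not replicates of a diet.

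The panel is mostly matrix. COL19A1 encodes a fibril-associated collagen and COL15A1 a collagen of the outer face of basement membranes. ADAMTSL1 is a secreted relative of the ADAMTS proteases without a protease domain. SVEP1 is a large secreted adhesion protein that binds integrins containing ITGA9, and TNC (tenascin-C) is a matricellular protein that vessels make during remodelling. AKAP12 is a scaffold for protein kinase A, SLC22A3 a transporter of organic cations that include monoamines, and PGM5 a structural protein of muscle attachment plaques related to phosphoglucomutase. Smooth muscle of the aortic media keeps a contractile program of myosin, actin and tropomyosin genes and can also make matrix.

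All 8 panel genes lie on pig chromosome 1 in the RefSeq annotation of Sscrofa11.1. The labels name the build of the deposited counts as Sscrofa11, and 99.8% of neighbouring placed features in the deposited gene list lie on the same chromosome in that annotation. From low to high coordinate, SLC22A3 is at chr1:7105486-7207395, AKAP12 at chr1:14904109-15017016 and COL19A1 at chr1:50044394-50402256. ADAMTSL1 is at chr1:203936654-204944236, PGM5 at chr1:221634516-221837764, COL15A1 at chr1:240718128-240829188, SVEP1 at chr1:251367401-251571799 and TNC at chr1:255533235-255630381. The chromosome is 274 Mb long, and the gaps between neighbouring panel genes run from 3.96 to 153.5 Mb. The 250 bases before the annotated gene start of the 3 genes that name these nuclei are shown because the panel genes were scored as 1 program. COL19A1 is on the plus strand (chr1:50044144-50044393), ADAMTSL1 on the minus strand (chr1:204944237-204944486) and SVEP1 on the minus strand (chr1:251571800-251572049), each written 5′ to 3′ in the gene's direction.
COL19A1: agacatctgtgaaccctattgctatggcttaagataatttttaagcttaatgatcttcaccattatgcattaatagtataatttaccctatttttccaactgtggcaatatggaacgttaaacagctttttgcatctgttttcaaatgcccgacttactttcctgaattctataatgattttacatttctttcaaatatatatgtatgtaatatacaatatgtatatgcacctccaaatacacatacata
ADAMTSL1: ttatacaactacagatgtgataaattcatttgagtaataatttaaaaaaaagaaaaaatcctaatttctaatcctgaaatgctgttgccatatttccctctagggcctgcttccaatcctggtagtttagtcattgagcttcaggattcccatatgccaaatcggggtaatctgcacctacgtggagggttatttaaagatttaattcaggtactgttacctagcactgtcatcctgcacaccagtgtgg
SVEP1: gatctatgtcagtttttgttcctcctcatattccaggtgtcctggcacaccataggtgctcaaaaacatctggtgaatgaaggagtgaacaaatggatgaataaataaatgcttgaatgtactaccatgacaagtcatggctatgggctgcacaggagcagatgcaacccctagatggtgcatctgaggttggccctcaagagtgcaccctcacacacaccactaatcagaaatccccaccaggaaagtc
No letters are in capitals, because no match was found to the 3 motifs searched. These were the CArG box bound by serum response factor, the MCAT element CATTCC on either strand, and the AP-1 site TGANTCA, which reads alike on both strands. None of the 8 panel promoters held any of them. Of 19559 RefSeq promoters of the same length, 1.31% held a CArG box, 10.3% an MCAT element and 5.27% an AP-1 site. A motif absent from this window says nothing about the factor.

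The score had no break at the threshold. The lowest member scored 2.0734 and the highest other nucleus 2.0733, and within 0.1 of the threshold there were 264 members and 365 other nuclei. The 10th member above the threshold scored 2.076 and the 10th nucleus below it 2.071. Scores reached 3.30, with a median of 2.29 in members and 0.93 in the rest. The threshold takes the upper end of a continuous range of scores, no clustering was used, and the members are named here by the rule and not as a distinct cell state. The median score over all gated nuclei was 0.86, 0.72 and 0.96 in obese replicates 1 to 3, and 1.17 and 1.12 in control replicates 1 and 2.

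**Figure D1:**
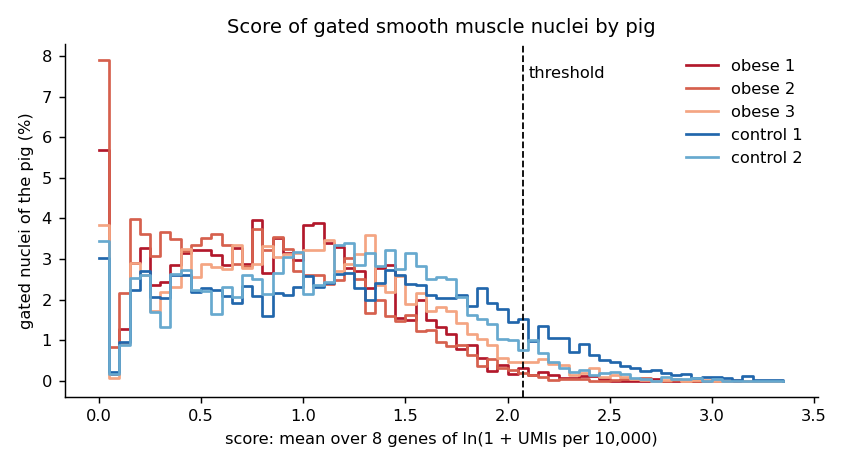
Distribution of the panel score (x axis) over the gated smooth muscle nuclei of each pig (y axis, percent of that pig's gated nuclei; lines, 1 pig each); the dashed line is the threshold. Each curve falls smoothly through the threshold at 2.07, and the 2 control pigs have more nuclei to its right than the 3 obese pigs.

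The gate fixes that every member shows at least 3 of its 7 smooth muscle genes, none of which lies on chromosome 1, so their detection describes the nuclei and does not test their identity. Members and the rest both had a median of 5 gate genes. MYH11 (smooth muscle myosin heavy chain) was detected in 90% of members and 92.4% of the rest, ACTA2 (smooth muscle actin) in 88.5% and 84.0%, and MYLK (myosin light chain kinase) in 82.6% and 84.4%. Joint detection of other cell types' markers is given without a test, and was not matched for depth, which was lower in members. At least 3 of 12 macrophage markers were detected in 0 of 1050 members and in 1.70% of the rest. By pig, the value in the rest was 2.84, 5.83 and 0.338% in the obese pigs. It was 0.0480 and 0.170% in the controls, which gave most members. At least 3 of 12 endothelial markers were detected in 1.52% against 4.04%, and at least 3 of 14 fibroblast markers in 41.6% against 43.3%. By pig, the fibroblast values were 25, 34.5 and 34.4% of members against 29.7, 40.0 and 39.8% of the rest in the obese pigs. In the controls they were 42.8 and 46.7% against 50.7 and 50.0%. The pooled values were not matched for pig. Members were shallower than the rest in every pig, with median UMIs of 2988, 3371 and 3116 against 4113, 4155 and 3890 in the obese pigs, and 3744 and 3870 against 4310 and 4150 in the controls. Gated nuclei with over 5% mitochondrial UMIs numbered 0. Of 199 barcodes found in more than 1 library, 0 were members in more than 1.

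Members carried nearly the whole panel, as the rule requires a high score. All 8 panel genes were detected in 299 members, 7 in 504, 6 in 229 and 5 in 18. ADAMTSL1 was detected in 98.9% of members, TNC in 97.2%, AKAP12 in 97.0% and COL19A1 in 50.6%, against 59.8%, 56.8%, 60.7% and 13.04% of the rest. In macrophage-marker nuclei outside the gate, a class that should lack them, ADAMTSL1 was detected in 18.6%, TNC in 15.4% and COL19A1 in 1.23% at a deeper median of 5910 UMIs. The panel share of the rest was therefore above that level for these genes. Outside the gate, 0 of 488 macrophage-marker nuclei, 22 of 853 fibroblast-marker nuclei, 7 of 171 pericyte-marker nuclei and 2 of 519 endothelial-marker nuclei reached the threshold.

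Levels are given as CPM, UMIs per 1000000 UMIs of the counts summed over each pig's members or rest. COL19A1 in members was 383, 491 and 382 CPM in obese replicates 1 to 3 and 417 and 346 CPM in control replicates 1 and 2. In the rest it was 65.2, 28.7 and 44.5 CPM in the obese pigs, and 64.0 and 53.2 CPM in the controls. Member levels overlapped between the diets. ADAMTSL1 in members was 3715, 3657, 3754, 3633 and 3997 CPM in the same order, against 778, 867, 807, 860 and 1275 CPM in the rest. SVEP1 in members was 1047, 1160, 960.0, 924 and 975 CPM, against 271, 242, 236, 249 and 305 CPM in the rest. TNC in members was 2105, 2069.6, 2925, 2238 and 2451 CPM, against 515, 335, 983, 585 and 614 CPM in the rest. The lowest member value was above the highest value of the rest for each of these 4 genes, which the choice of members fixes. The log2 ratios of members over the rest, averaged over pigs, ran from 1.63 for SLC22A3 to 3.00 for COL19A1, and carry no test.

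**Figure D2:**
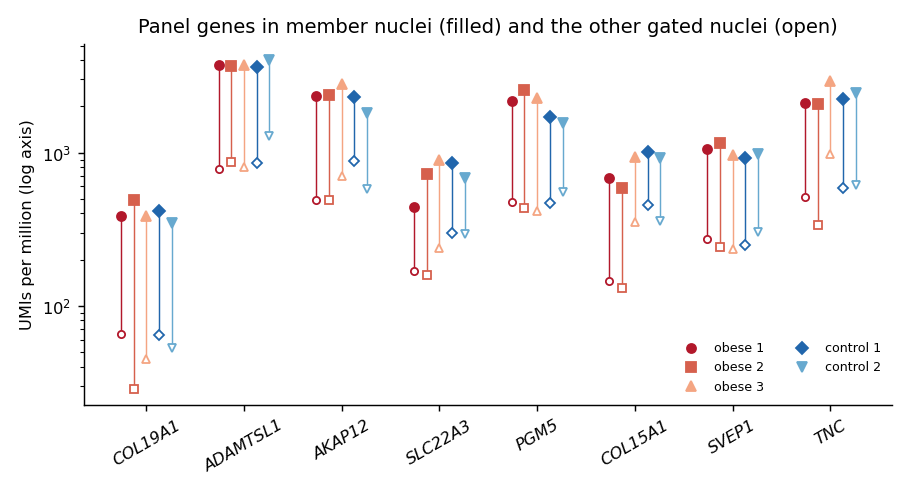
Panel genes (x axis) in member nuclei (filled) and the rest (open) of each pig, as CPM on a log axis (y axis); a line joins the 2 values of 1 pig. Every filled point lies above its open point because the panel selected the members, and COL19A1 has the longest lines, with a mean log2 ratio of 3.00.

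Ranking the nuclei by the other 7 genes and reading the gene left out gives values that the ranking did not use, though the other genes still chose the nuclei. This reading was added after seeing the data. Left out in this way, COL19A1 was higher in the top 5% than in the rest by a log2 ratio of 2.03 ± 0.90 (SD, n = 5 pigs), PGM5 by 1.59 ± 0.48 and ADAMTSL1 by 1.39 ± 0.30. SVEP1 was higher by 1.27 ± 0.20, TNC by 1.17 ± 0.37, AKAP12 by 1.16 ± 0.19 and COL15A1 by 0.98 ± 0.25. SLC22A3 was higher by 0.67 ± 0.47, and in control replicate 2 its ratio was -0.09. Each of the other 7 genes was higher in 5 of 5 pigs. Across single gated nuclei the correlations between panel genes were weak in every pair, the largest a mean within-pig r of 0.32 between ADAMTSL1 and SVEP1, and the smallest 0.08 between COL19A1 and SLC22A3.

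Outside the panel, the genes that were highest in members relative to the rest were chosen by a fixed rule, the largest lowest-of-pigs ratio, and are a description. Of 8318 genes with at least 10 CPM in members or rest, 9 were at least 2-fold higher in every pig (0.108%) and 81 at least 2-fold lower in every pig (0.974%). The median log2 ratio over all of them was -0.26. UNC13C, a synaptic vesicle priming factor, was 889, 544, 308, 532 and 1045 CPM in members in the same order of pigs, against 145, 134, 107, 139 and 408 CPM in the rest. GNA14, a G protein alpha subunit of the Gq class, was 608, 865, 717, 549.9 and 629.6 CPM against 238, 245, 286, 219 and 219 CPM. The member value was above that pig's value in the rest in all 5 pigs for both genes. TLN1 (talin 1, which ties integrins to actin) was higher by a mean log2 ratio of 1.45 and PTPRD (a receptor phosphatase) by 1.57. DOK6 (an adaptor of receptor tyrosine kinases) was higher by 1.51 and RRAGD (a Rag GTPase of amino acid sensing) by 1.42.

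IGF1R, the receptor of insulin-like growth factors, was the gene outside the panel whose level followed the score most closely among gated nuclei. Its within-pig correlation with the score was 0.50, 0.51, 0.50, 0.63 and 0.52, with a mean of 0.53, over 2849 to 6982 nuclei a pig. It was 4728, 6021, 4874, 4551 and 3770.0 CPM in members against 1968, 1839.9, 1985, 2068 and 1911 CPM in the rest. The next genes were SETBP1 (mean r 0.45), KANK1 (0.42), TPM1 (0.42), PIAS1 (0.40), TMEM245 (0.37), NTRK3 (0.36), PCSK5 (0.36), THSD4 (0.36) and ARID1B (0.35). These correlations share depth and library, and are given without a test. Tropomyosins were also among the 20 genes of the rule, TPM1 with a mean log2 ratio of 0.99 and TPM2 with 1.26, as was THSD4, an ADAMTS-like microfibril protein, with 1.28.

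The feature that these genes share is their position. All 8 panel genes, all 20 genes of the rule that were higher in members and all 10 genes closest to the score lie on chromosome 1. Of the 9 genes at least 2-fold higher in every pig, 7 could be placed, and all 7 are on chromosome 1. Among the 8318 genes, 6885 outside the panel could be placed, of which 732 (10.6%) are on chromosome 1. By contrast, of the 81 genes at least 2-fold lower in every pig, 70 could be placed and 5 are on chromosome 1. These comparisons use nuclei selected on 8 chromosome 1 genes, so they describe the selected nuclei and carry no test.

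The higher levels spanned the chromosome and were not limited to the panel loci. The median log2 ratio of the 732 chromosome 1 genes was 0.74, 0.66 and 0.82 in obese replicates 1 to 3 and 0.58 and 0.39 in control replicates 1 and 2. When each gene's ratio was first averaged over pigs, the median over genes was 0.58 on chromosome 1, and -0.42 to -0.17 on each of the 18 other chromosomes. The highest median of another chromosome in a single pig was 0.19, for chromosome 12 in obese replicate 1, where members numbered 28. Of the chromosome 1 genes, 357 of 732 (48.8%) were higher in members in all 5 pigs, against 132 of 6153 (2.15%) on the other chromosomes and 7.2% of all 8318. In 20 Mb steps along the chromosome the median ran from 0.31 at 20 to 40 Mb to 0.76 at 200 to 220 Mb. The 9 steps that hold no panel gene had medians from 0.31 to 0.74.

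**Figure D3:**
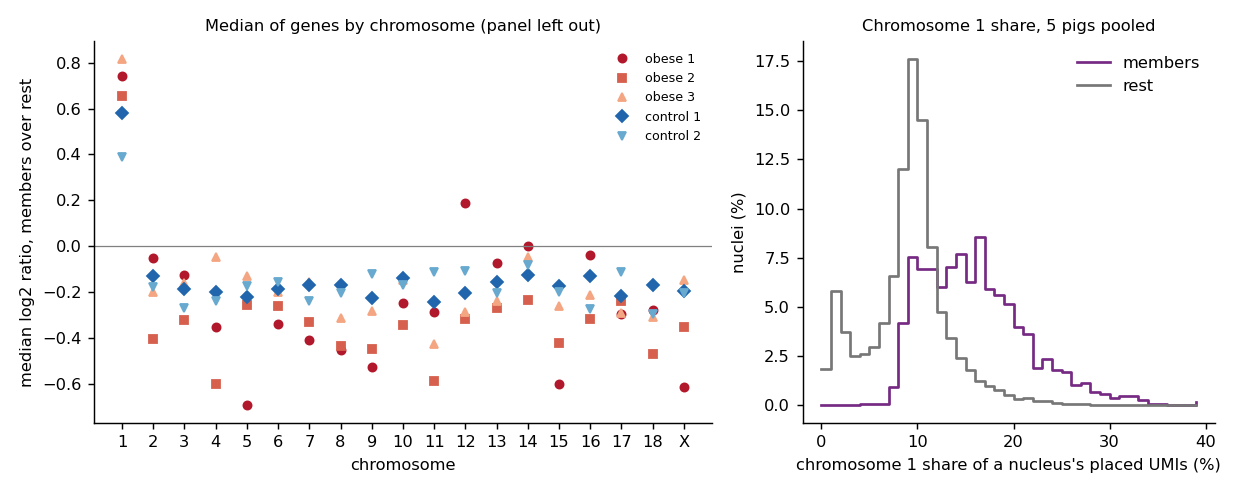
Left, the median log2 ratio of members over the rest (y axis) of the genes on each chromosome (x axis), panel genes left out, with 1 point per pig; right, the chromosome 1 share of the UMIs of each nucleus (x axis, percent) in members and the rest of all pigs (y axis, percent of nuclei). Chromosome 1 stands at 0.39 to 0.82 in the 5 pigs, above every other chromosome, and 52.4% of members but 6.93% of the rest have a share of at least 15%.

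The same pattern was visible nucleus by nucleus. With panel genes left out, chromosome 1 gave a median of 16.3, 17.3 and 16.7% of a member's placed UMIs in obese replicates 1 to 3, and 15.2 and 14.5% in control replicates 1 and 2. In the rest the medians were 9.68, 9.57 and 9.21% in the obese pigs, and 9.45 and 9.27% in the controls. The groups of medians did not overlap. Shares of at least 15% were found in 52.4% of members and 6.93% of the rest, and shares of 5% or less in 0.0952% of members and 16.5% of the rest. Median UMIs from chromosome 1 genes were 480.5 in members and 327 in the rest, although members had fewer UMIs in all.

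Wide spread in the share of a chromosome was not limited to chromosome 1. Over all gated nuclei, the variance of the chromosome 1 share was 77.6 times what counting alone gives, and the other chromosomes ran from 18.4 to 99.3 times. Chromosome 13 was the 1 chromosome above chromosome 1. In macrophage-marker nuclei outside the gate the ratio was 24.5 for chromosome 1 and 5.72 to 26.5 over all chromosomes. In pericyte-marker nuclei it was 109 for chromosome 1, and in fibroblast-marker nuclei 52.4. A chromosome 1 share of at least 1.5 times the median was found in 10.8% of gated nuclei and 1.43% of macrophage-marker nuclei. For a share at or under 50% of the median the values were 15.1% and 2.87%. The ratio to counting variance rises with depth, which differed between these classes. The DNA content of the nuclei was not measured in the deposited files, and what moves a whole chromosome together was not tested.

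Membership followed the chromosome 1 share, and within a band of shares the percentage of members differed between pigs. Below a share of 8%, 13 of 6051 gated nuclei were members (0.215%). From 8 to 11% the value was 2.18%, from 11 to 15% 7.26%, and from 15% upwards 28.5%. In the highest band, 11.7, 5.83 and 18.8% of nuclei were members in obese replicates 1 to 3, and 43.5 and 31.8% in control replicates 1 and 2. In the band from 8 to 11% the values were 0.246, 0.158 and 0.665% in the obese pigs, and 5.69 and 2.40% in the controls. The control pigs were above the obese pigs in both bands, though shares within a band were not matched between pigs. The size of the highest band itself did not separate the diets, at 5.09, 7.51 and 10.7% of gated nuclei in the obese pigs and 12.2 and 6.42% in the controls.

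A second score took the panel UMIs per 1000 UMIs of the other chromosome 1 genes, in 18290 gated nuclei with at least 100 such UMIs. This alternative was chosen after seeing the data. Its top 5% held 914 nuclei, of which 611 were members (66.8% of the 914 and 58.2% of the members). Their median chromosome 1 share was 10.3%, beside 15.5% in members and 9.45% in the rest, and the median log2 ratio of chromosome 1 genes was -0.14, beside -0.23 on the other chromosomes. Dividing by chromosome 1 UMIs selects against a high chromosome 1 share, so these lower values follow at least in part from the score. Left out of this score in turn, COL19A1 was higher in the top 5% by a log2 ratio of 1.20 relative to chromosome 1 UMIs, ADAMTSL1 by 0.73, PGM5 by 0.62 and SVEP1 by 0.57. COL15A1 was higher by 0.53, TNC by 0.41, AKAP12 by 0.40 and SLC22A3 by 0.20. The ratio was above 0 in 5 of 5 pigs for COL19A1, ADAMTSL1, AKAP12, PGM5 and COL15A1, and in 4 of 5 for SVEP1, TNC and SLC22A3. Ranking and reading both divide by the chromosome 1 UMIs of the same nuclei. The shared divisor by itself moves these ratios upwards, by an amount that was not tested. The ratios were smaller than in the first score for each of the 8 genes. The first score's ratios were read relative to all UMIs and over all gated nuclei, so the sizes are not on the same measure. Outside the panel, 0 placed genes were at least 2-fold higher in every pig. The 6 genes with the largest lowest-of-pigs ratio were GALNTL6 (chromosome 14, mean log2 ratio 1.59), LYPD6 (chromosome 15, 1.11), ACTG2 (enteric smooth muscle actin, chromosome 3, 1.45), FSCN2 (chromosome 12, 1.28), UNC13C (chromosome 1, 1.23) and DES (desmin, chromosome 15, 1.09). Of the 20 genes first in that order, UNC13C, CCDC68 and LAMA4 lie on chromosome 1.

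The genes lowest in members were mostly at 0 UMIs in the obese pigs' members. Of the 81, 66 had 0 member UMIs in at least 1 pig, so their fitted ratios are not given. SERPINE2, a secreted protease inhibitor, had 0, 0, 0, 9 and 0 member UMIs, and 37.5, 15.8, 35.6, 27.3 and 10.3 CPM in the rest. EDNRB, an endothelin receptor, had 0, 0, 0, 5 and 1 member UMIs, and 51.2, 38.4, 22.5, 18.0 and 18.3 CPM in the rest. SULF1, a heparan sulfate sulfatase, had 1, 1, 8, 39 and 6 member UMIs (11.3, 8.92, 16.4, 10.9 and 9.47 CPM), against 139, 159, 126, 83.8 and 59.4 CPM in the rest. Each pig's member value was below its value in the rest for these 3 genes. A single UMI was worth 11.3, 8.92 and 2.06 CPM in the members of obese replicates 1 to 3, so a level under these values could not be seen there. RERG (a Ras-like growth inhibitor), PRKCH (a protein kinase C), ARHGAP28, GAS7, ICA1, NFATC2 (a calcium-regulated transcription factor) and NIPAL2 completed the 10 genes of the rule. They lie on several chromosomes, and 1 of the 10 is on chromosome 1.

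The gene lists around the panel's functions were described by counts and medians, beside the median of -0.26 over all genes. The lists were not split by chromosome, and the median over chromosome 1 genes outside the panel was 0.58. Among integrins and other receptors of SVEP1 and TNC, 0 of 10 measured above the level were 2-fold different in every pig, with a median of -0.02. ITGA9 was 349, 589, 537, 605 and 879 CPM in members and 497, 394, 458, 599 and 781 CPM in the rest, so members were higher in 4 pigs and lower in obese replicate 1. Network and fibril-associated collagens other than the panel had 0 of 13 and a median of -0.08, and fibrillar collagens 0 of 7 and -0.14. COL12A1, a fibril-associated collagen chosen after its values were seen, was higher in 4 of 5 pigs with a mean log2 ratio of 0.66 ± 0.40 (SD, n = 5). COL4A1, of basement membranes, was higher in 1 of 5 with -0.08 ± 0.34. Microfibril and ADAMTS-like genes had 0 of 19 and a median of -0.23. In that list FBN1 (fibrillin-1), also chosen after its values were seen, was higher in 5 of 5 pigs with 0.54 ± 0.27, and ELN (elastin) in 1 of 5 with -0.63 ± 0.76. ADAMTS proteases had 0 of 14 and a median of -0.16.

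Attachment plaque genes, which anchor smooth muscle to its matrix, had 1 of 29 outside the panel higher (TLN1, on chromosome 1). They had 1 lower (SNTB1, a syntrophin), with a median of 0.09. Their summed level, which includes the panel gene PGM5, was higher in members in every pig, for example 26565 against 22852 CPM in obese replicate 1. Of these, PGM5 gave 2184 against 474 CPM, so the choice of members fixes part of the rise. LAMA4, a laminin chain on chromosome 1 chosen after its values were seen, was higher in 5 of 5 pigs with 1.08 ± 0.27. Contractile genes had 0 of 21 at 2-fold and a median of 0.41, with MYH11 at 0.57 ± 0.28, ACTA2 at 0.61 ± 0.30 and LMOD1 at 0.68 ± 0.28, each higher in 5 of 5 pigs. Matricellular genes had 0 of 15 higher and 1 lower (POSTN, periostin), with a median of -0.55. Cyclic AMP genes had 1 of 19 lower (PDE4D, a phosphodiesterase), with a median of -0.45. Immediate early and heat shock genes had 3 of 17 lower (NR4A2, HSPH1 and KLF2) and a median of -1.19. LXR target genes had a median of -1.08 over 9, and sterol synthesis genes -0.74 over 8, with 0 in each at 2-fold. Their summed levels were not lower in every pig. The log2 ratio of the LXR sum was 0.32, -0.11 and 0.58 in the obese pigs, and -0.17 and -0.01 in the controls. For the sterol sum it was 0.25, -0.43 and 0.09 in the obese pigs, and -0.15 and -0.44 in the controls. TGF-beta and BMP genes had 2 of 19 lower, TGFB1 and BMP6. Of the 4 genes of monoamine handling above the level, 0 were at 2-fold, and 0 of 10 HOX genes were.

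Members were also compared with other scored ranges of smooth muscle nuclei. For 5 other sets of 3 genes, the top 5% of gated nuclei by score was taken, so each set holds 5% of all gated nuclei. The minimum of 3 detected genes was not applied there, so not every gene of a set had to be detected. The HMCN1, CNTN5 and MYO18B set held 107 members (10.2% of either list), and the IGSF10, HRH1 and TMEM108 set 88 (8.38%). The PTGER3, FRZB and ACTG2 set held 43 (4.10%), the GPRC5A, INHBA and FLNC set 23 (2.19%), and the CTNNA3, RGS6 and EDNRB set 7 (0.667%). The first pair of shares lies above 5% and the other 3 below it, with no test. Most members came from the control pigs, so 5% is not the share at the members' mix of pigs. The HMCN1 set held 0.0702, 1.02 and 0.906% of gated nuclei in the obese pigs, and 9.67 and 9.57% in the controls. In the same order the IGSF10 set held 2.21, 3.55, 2.11, 7.96 and 6.52%. The PTGER3 set held 9.97, 8.85, 5.13, 2.23 and 1.36%. The overlap was not matched for pig. IGSF10, HRH1 and TMEM108 all lie on chromosome 13, and 2 of the 3 genes of the first set (HMCN1 and CNTN5) on chromosome 9.

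The first comparison of diets asked how frequent members were. Members made up 28 of 2849 gated nuclei in obese replicate 1 (0.983%, 95% exact Clopper-Pearson interval 0.654 to 1.42%), 29 of 4112 in obese replicate 2 (0.705%, 0.473 to 1.01%) and 125 of 3974 in obese replicate 3 (3.15%, 2.62 to 3.74%). They made up 731 of 6982 in control replicate 1 (10.5%, 9.76 to 11.2%) and 137 of 3083 in control replicate 2 (4.44%, 3.74 to 5.23%). Intervals cover counting error only. Both control pigs were above all 3 obese pigs, and obese replicate 3 lay closer to control replicate 2 than to the other obese pigs. The means were 1.61 ± 1.34% (SD, n = 3) in obese and 7.46 ± 4.26% (SD, n = 2) in control pigs. The difference was -5.85 percentage points with a two-sided exact permutation p of 0.2, the smallest that 3 pigs against 2 allow, so it cannot reach 0.05. Without control replicate 1 the difference was -2.83 points. With each nucleus thinned to 2000 UMIs the shares were 1.26, 1.05 and 3.12% in the obese pigs, and 10.2 and 4.38% in the controls, and 820 of the 1050 members (78.1%) were chosen again. With the panel scaled to chromosome 1 UMIs they were 0.753, 0.733 and 2.215% in the obese pigs, and 11.3 and 4.83% in the controls.

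**Figure D4:**
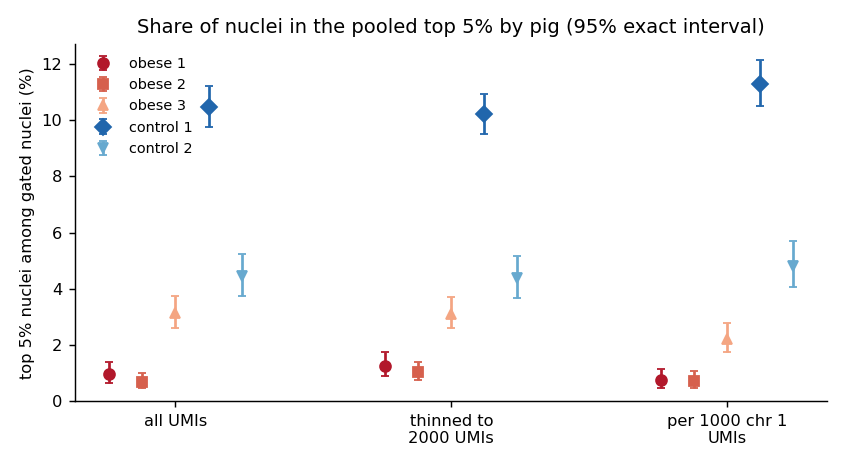
Share of gated nuclei in the pooled top 5% (y axis, percent) for each pig under 3 ways of scoring (x axis): all UMIs, nuclei thinned to 2000 UMIs, and panel UMIs per 1000 UMIs of other chromosome 1 genes. Points are pigs with 95% exact intervals, and both control pigs lie above the 3 obese pigs in each, with control replicate 1 the highest at 10.2 to 11.3%.

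The panel genes were tested between diets over all gated nuclei, since the gate does not use them. SLC22A3 was 172, 145 and 277 normalised CPM in the obese pigs and 341 and 322 in the controls, a log2 fold change (obese over control) of -0.74 ± 0.28 (SE) with an adjusted p of 0.282 in edgeR's quasi-likelihood test. COL15A1 was 149.5, 119 and 395 in the obese pigs and 491 and 397 in the controls, with -1.004 ± 0.456 (SE) and an adjusted p of 0.359. ADAMTSL1 was 802, 791 and 954 in the obese pigs and 1085 and 1441 in the controls, with -0.57 ± 0.23 (SE) and an adjusted p of 0.297. SVEP1 was 278, 222 and 275 against 303 and 345, and PGM5 488, 398 and 497 against 566 and 620.3. In these 5 genes every obese pig was below both controls, as were 2989 of the 18385 genes tested (16.3%). COL19A1, AKAP12 and TNC overlapped between the groups. No panel gene passed the test, with adjusted p from 0.282 to 0.921. Over all gated nuclei 33 of 18385 genes passed (0.179%), and over the rest 35 of 18430 (0.19%). Over gated nuclei 0 genes passed in edgeR without obese replicate 1, control replicate 1 or control replicate 2 (1830, 1699 and 2156 at an unadjusted p under 0.05). Without obese replicate 2 there were 150, and without obese replicate 3 there were 479.

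Within members, 12 of 6012 genes passed edgeR's test between diets (0.2%), 10 higher and 2 lower in obese pigs. The genes that rose included regulators of signalling and stress, a cholesterol exporter and matrix or actin genes. RGS2, a GTPase activator that dampens Gq signalling, was 170.0, 201 and 141 normalised CPM in the obese pigs and 6.47 and 17.2 in the controls. That is a log2 fold change of 4.06 ± 0.56 (SE) with an adjusted p of 0.00337. THBS1 (thrombospondin-1) was 646, 228 and 1091 against 60.6 and 27.6, with 3.85 ± 0.55 (SE) and an adjusted p of 0.00337. ABCA1, the LXR-induced exporter of cholesterol, was 680.0, 548 and 730.2 against 141 and 84.5, with 2.51 ± 0.37 (SE) and an adjusted p of 0.00378. The obese pigs were above the controls without overlap in all 3 genes. ZFP36L2, an RNA-binding protein that destabilises messages, rose by 3.57 (adjusted p 0.00378), and NFKBIZ, an NF-kB cofactor, by 2.73 (adjusted p 0.0155). DDIT4 (an mTOR inhibitor induced by stress) rose by 3.74, ANXA1 (annexin A1) by 2.89, RUNX1 (a transcription factor) by 2.82 and ACTG2 by 1.90. With the top 5% within each library the adjusted p in edgeR was 0.112 for DDIT4, 0.296 for ANXA1 and 0.0754 for ACTG2, and with the top 10% it was 0.123 for both DDIT4 and ANXA1. DUSP1, a MAP kinase phosphatase, also passed, with groups that overlapped.

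**Figure D5:**
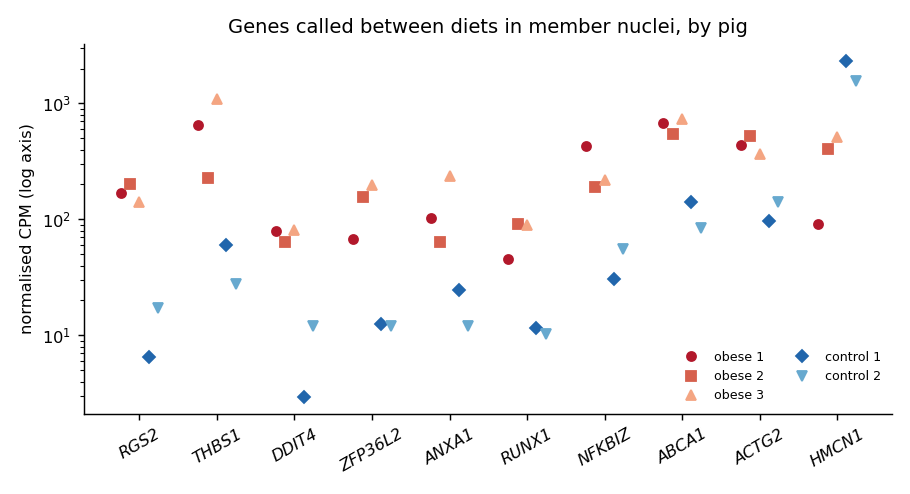
Normalised CPM (y axis, log scale) in the member nuclei of each pig (points) for the 10 named genes (x axis) that passed edgeR's test between diets with groups that did not overlap. The obese pigs lie above both controls for 9 genes, and below them for HMCN1.

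HMCN1, hemicentin-1 of the extracellular matrix, fell with obesity in members. It was 90.7, 402 and 511 normalised CPM in the obese pigs and 2331 and 1564 in the controls, a log2 fold change of -2.47 ± 0.43 (SE) with an adjusted p of 0.0155 in edgeR. The call was lost with the top 5% taken within each library (-2.08, adjusted p 0.162 in edgeR), with the top 10% (-2.16, 0.143) and without obese replicate 1 (-2.07, 0.0606). The other gene that fell has only an identifier. LIMCH1, FAP, CREB5 and MERTK were named by the rule to fill the genes lower in every obese pig and did not pass, with adjusted p from 0.0614 to 0.107. LIMCH1, which activates non-muscle myosin, was 295, 539 and 625 against 1489 and 1395. FAP, a fibroblast protease, rested on 5 UMIs in obese and 278 in control members. Every obese pig was below both controls in 784 of the 6012 genes (13%).

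Member counts differed widely between libraries. Obese replicates 1 and 2 gave 28 and 29 members with 88838 and 112099 UMIs, against 3593140 UMIs in control replicate 1. RGS2 rested on 15, 22 and 63 UMIs in 7, 10 and 26 members of the obese pigs. For ANXA1, 79 of the 106 UMIs of obese replicate 3 were in 1 nucleus. Macrophage marker counts were highest in obese replicates 1 and 2. Summed over the 12 markers they were 56.3, 80.3 and 18.5 CPM in the members of the obese pigs and 16.7 and 11.05 in the controls, and 101, 291 and 31.8 against 29.9 and 33.4 in the rest. Obese replicate 3 was above both controls in members and between them in the rest. In members CD68, C1QA, C1QB, C1QC and MARCO were at 0 UMIs in every pig, and LGMN gave 2, 2 and 6 UMIs in the obese pigs. The remainder of the member sums came from CD163, MRC1, CSF1R, MSR1, F13A1 and CD14 together. In obese replicates 1 and 2 that remainder was larger than the part from LGMN. The part of these markers in the calls was not tested. Without obese replicate 1, 1 gene passed, without obese replicate 2, 30, without control replicate 1, 4, and without control replicate 2, 35. Of the lists, contractile genes had 1 of 21 tested higher (ACTG2), matricellular genes 1 of 13 (THBS1), LXR targets 1 of 3 (ABCA1) and immediate early and heat shock genes 1 of 14 (DUSP1), each with 0 lower. Hypoxia genes had 0 of 11 called and a median log2 fold change of 1.02, and sterol synthesis genes 0 of 4 and -0.88, beside -0.03 over all genes tested. Integrins and receptors (8 tested), collagens (12 and 7), ADAMTS proteases (11), microfibril genes (16) and attachment plaque genes (28) had 0 called.

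The genes called in members are set beside their values in the rest, which come from the same pigs. In the rest the log2 fold change was 3.08 for RGS2, 2.83 for ZFP36L2, 2.14 for RUNX1 and 1.90 for ABCA1, and each passed with an adjusted p of 0.0263 to 0.0294. THBS1 (2.88, adjusted p 0.0508), NFKBIZ (2.57, 0.0733) and ACTG2 (1.19, 0.0769) did not pass there, nor did HMCN1 (-1.73, 0.181). Whether the diet effect differed between members and the rest was tested in 1 model over both sums of each pig, with each pig given its own term. For these 11 named genes the adjusted p of the interaction ran from 0.085 (HMCN1) to 0.987, so no difference was shown. The call in the rest is lost in edgeR without obese replicate 1 or either control, where 0 genes passed (1831, 1678 and 2133 at an unadjusted p under 0.05). Over all genes 17 of 16641 passed that test (0.102%), 4 higher and 13 lower, with a median log2 value of -0.27 over all genes tested. The count was 0 with the DESeq2 Wald test (363 at an unadjusted p under 0.05), and 0 in edgeR without either control (407 and 603 at an unadjusted p under 0.05).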

How the data were processed

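Single-nucleus RNA-seq (10x 3' v3.1) was measured in 5 libraries, 1 per pig. The labels name Cell Ranger 5.0, Seurat 5.0 and the build Sscrofa11, while per the file headers Cell Ranger 7.1.0 wrote the matrices. The authors deposited 1 matrix of whole-number UMI counts for each library, and these total 22400089, 35655806 and 29717314 in obese replicates 1 to 3 and 47724416 and 21516249 in control replicates 1 and 2. Nothing in the sources used here states separate processing batches.

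Members and gene lists were chosen with earlier results of these data known, so their directions are not independent support. Counts were summed per pig over members, the rest or all gated nuclei. Diets were tested with edgeR 4.0.16 (quasi-likelihood, TMM, low-count filter by diet, Benjamini-Hochberg adjustment over all genes tested, threshold 0.05), and shares with an exact permutation test over pigs. The interaction used pig as a block. Members against the rest carry no test: CPM ratios with a pseudocount of 1 CPM, for genes of at least 10 CPM. The genes named are the panel, the 20 with the largest lowest-of-pigs ratio, the 10 with the smallest highest-of-pigs ratio, up to 10 called genes per direction with separate groups (filled to 5 by p), 5 per direction of the interaction, up to 4 per list, and the 10 closest to the score. COL12A1, FBN1, LAMA4 and other genes named outside it were chosen after their values were seen. Not every gene that the rule names is reported here. Chromosomes came from the RefSeq annotation of Sscrofa11.1, which placed 14468 of 35670 features holding 82.6% of gated UMIs. Doublets were kept in the values reported, and Scrublet scores in scanpy 1.11.5 served an alternative. The scripts were tested on simulated data. DESeq2 1.42.0, limma 3.58.1 and left-out pigs were alternatives.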

Additional observations from a re-analysis of the deposited data

Results flagged for a closer look

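Of the genes tested for a diet effect that differs between members and the rest, 8 with a symbol passed edgeR's interaction test among those named. Signed values are the log2 fold change of obese over control in members minus that in the rest, and the median over all genes tested was -0.27. ADAMTS5, a protease of aggrecan and versican, had 3.67, but 129 of the 130 member UMIs of obese replicate 3 were in 1 nucleus, and the value was -1.35 without that pig. GRIN3A, a glutamate receptor subunit, had 10.4 on 9 member UMIs in 2 nuclei of obese replicate 2. PECAM1, an endothelial adhesion molecule, had 2.17 on 13, 8 and 14 member UMIs in the obese pigs. Its log2 fold change in edgeR was 0.93 in members (adjusted p 0.821) and -1.57 in the rest (adjusted p 0.0294).

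BACH2, a transcriptional repressor, had -2.06, with 2, 0 and 42 member UMIs in the obese pigs and 856 and 154 in the controls. DOCK4 had -1.94, the tetraspanin CD9 had -1.67 and the scaffold DLG2 had -1.15. The log2 fold changes of DOCK4, CD9 and DLG2 were -0.69, -0.41 and -1.16 in members, and 1.49, 1.02 and -0.24 in the rest. None of these 3 genes passed edgeR's diet test in either set. In the obese pigs DOCK4 had 9, 4 and 14 member UMIs and CD9 had 5, 7 and 53. FAM241A had -11.2, with 0 member UMIs in every obese pig and 71 and 4 in the controls, so its size is no estimate of a fold change. None of these calls was made by the DESeq2 Wald test, which called 0 genes with 363 at an unadjusted p under 0.05. The edgeR test also called 0 genes without either control replicate.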

How the results depend on the processing

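The difference in member share kept its sign and its separate groups in all 15 alternatives, from -10.7 to -2.83 points, and no setting could reach p under 0.05. Counts of genes called moved more. In members the 12 calls became 34 with DESeq2, 52 with no filter on low counts, 48 with limma-voom and 1 to 35 with single pigs left out. Over gated nuclei the 33 became 792 with DESeq2, 1060 with no filter and 0 to 479 with single pigs left out. In the rest the 35 became 797, 1052 and 0 to 523. The 17 interaction calls became 7 with DESeq2 size factors, 10 with no filter, 4 with doublets removed, 0 with the DESeq2 Wald test (363 at an unadjusted p under 0.05), 0 in edgeR without the pig block (636), 0 in edgeR over genes tested in members (350), and 0 to 23 with single pigs left out. The 90 genes at least 2-fold different in every pig became 343 without nuclei holding markers of other types. These shared 3 of the 9 higher and 15 of the 81 lower genes. With each nucleus thinned to 2000 UMIs, 16 genes were higher and 66 lower, sharing 8 of the 9 and 34 of the 81. The 90 became 139 in the 3 pigs with over 100 members, and 100 to 147 with single pigs left out. Reversed values were TNC over gated nuclei, 0.21 without obese replicate 2 (-0.77 without obese replicate 3), ADAMTS5, -1.35 without obese replicate 3, and LRFN5, -0.31 in the pigs with over 100 members. The cause of these changes was not tested.

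Same-numbered pigs of the 2 groups had correlations of 0.08 and -0.05 between their deviations from the group means. The 2 controls deviate from their mean by equal and opposite amounts, so these values cannot show whether the numbers pair the pigs. With the replicate number as a block the calls were 22 in members (8 of the 12 kept, with DDIT4, ANXA1 and RUNX1 lost at adjusted p 0.0506, 0.219 and 0.269 in edgeR), 271 over gated nuclei and 518 in the rest. Limma-voom, the pigs with over 100 members, the chromosome 1 scaling and the restriction to genes tested in members were chosen after seeing the data. With 28 and 29 members in 2 obese pigs, genes of low level were not detectable there. Taking the top 5% within each library kept 7 of the 12 member calls and shared 2 of the 9 higher and 43 of the 81 lower genes. It gives no share to compare, and the mitochondrial limit removed 0 nuclei.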

Other observations

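Nuclei with at least 2000 UMIs outside the smooth muscle gate belong to no comparison above. Of these, 5 of 665, 8 of 1411 and 5 of 606 reached the panel threshold in obese replicates 1 to 3, and 45 of 738 and 6 of 356 in control replicates 1 and 2. Those shares were 0.752, 0.567 and 0.825% in the obese pigs, and 6.10 and 1.69% in the controls, with both controls above the obese pigs, and were not tested.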
